A study of Mus musculus and Homo sapiens with 22 samples.

Results

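Keratins are the proteins of the intermediate filaments of epithelial cells. The keratin genes described here are all genes of the 4T1 count tables whose mouse symbol is Krt followed by digits alone, which gave 50 of 38924 gene IDs. The rule uses the symbol and no measured value, and it was set with earlier results of these data known. Of the 50 genes, 26 are type I and 23 type II keratins, and Krt88 has neither type in the lists used. In the mouse assembly GRCm38 25 lie on chromosome 11 and 25 on chromosome 15.

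Of the 22 RNA sequencing libraries of the series, the 12 labelled 4T1 are described here. 4T1 is a mouse mammary carcinoma line that comes from a female BALB/c mouse. Cells of all groups were plated for 24 h and then kept for 24 h with a compound or with the vehicle DMSO, and each of the 6 groups had 2 libraries. The groups were ENMD-2076 at 1.25 µM and at 2.5 µM, set against DMSO 1 and 2, and TAK901 at 1 µM and at 2 µM, set against DMSO 3 and 4. Doses are those of the treatment labels, while the column headers of all 4 ENMD-2076 tables read 10 µM and name no compound, so the ENMD-2076 doses rest on the labels and the design text. ENMD-2076 and TAK901 are small-molecule inhibitors known to act on Aurora kinases, the enzymes of spindle assembly and chromosome separation. The ENMD-2076 libraries with DMSO 1 and 2 and the TAK901 libraries with DMSO 3 and 4 carry different styles of names and are called here the ENMD-2076 set and the TAK901 set. The labels do not say that the 2 libraries of a group came from separate cultures, so a p-value here reflects the spread of 2 libraries a group, and that spread may be technical alone.

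The libraries held 14.4 to 30.9 M reads in genes, except for TAK901 at 2 µM, which had 6.00 and 3.75 M. Levels are counts of reads per 1 M reads in genes (CPM) scaled by TMM, and 3 reads, the upper limit that a count of 0 allows, stood at 0.452 and 0.716 CPM in TAK901 at 2 µM and at 0.0966 to 0.265 CPM elsewhere. Counting intervals and floors cover counting error only. The 95% intervals of log2 differences come from the fit and include the spread between libraries. The sets did not look alike in genes unrelated to keratins. Y-linked genes summed to 237 to 247 CPM in the 4 TAK901 libraries and to 252 and 251 CPM in DMSO 3 and 4, while they had 0 reads in each library of the ENMD-2076 set. Xist, the transcript of the inactive X chromosome, stayed at or below 0.481 CPM in every library. Since 4T1 comes from a female mouse, the Y-linked reads go against the 4T1 label of the TAK901 set, and the source of its cells was not tested. Every contrast between the sets below therefore rests on libraries that differ in these markers too. The parts of line source and library preparation in the keratin differences between the sets cannot be told apart.

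Each keratin filament is built from type I and type II chains that pair with each other. Simple epithelia, the single-layered linings that include the luminal cells of the mammary gland, use the type II chains Krt8 and Krt7 with the type I chains Krt18 and Krt19. Basal cells of stratified epithelia and of the mammary gland use Krt5 with Krt14, the suprabasal epidermis uses Krt1 with Krt10, and hair and nail have their own pairs. The filaments are held at desmosomes and hemidesmosomes, the spot-like junctions of epithelia.

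Start regions are shown for the pair Krt8 and Krt18, whose levels came apart with ENMD-2076, and for Krt20 and Krt23, which were at 0 or near it in the ENMD-2076 set. RefSeq promoters of assembly GRCm38.p6, each of 300 bases with 250 before and 50 after the annotated start, matched 35 of the 50 genes and gave 36 promoters. The letters searched on both strands were TATAAA (core of the TATA box), CCAAT (a box of that name), GGGCGG (GC box), TGANTCA (AP-1), GCCNNNGGC (AP-2) and TTTATG (CDX), and matches are in capitals. TTTATG shares its first 5 letters with TTTATA, the form of the TATA core on the other strand.
Krt8, chr15:102004293-102004592, minus strand: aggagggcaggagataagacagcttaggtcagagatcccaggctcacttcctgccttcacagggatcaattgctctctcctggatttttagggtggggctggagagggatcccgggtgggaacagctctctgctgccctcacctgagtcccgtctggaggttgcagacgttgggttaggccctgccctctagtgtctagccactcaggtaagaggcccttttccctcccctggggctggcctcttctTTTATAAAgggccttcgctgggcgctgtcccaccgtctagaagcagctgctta
Krt18, chr15:102027966-102028265, plus strand: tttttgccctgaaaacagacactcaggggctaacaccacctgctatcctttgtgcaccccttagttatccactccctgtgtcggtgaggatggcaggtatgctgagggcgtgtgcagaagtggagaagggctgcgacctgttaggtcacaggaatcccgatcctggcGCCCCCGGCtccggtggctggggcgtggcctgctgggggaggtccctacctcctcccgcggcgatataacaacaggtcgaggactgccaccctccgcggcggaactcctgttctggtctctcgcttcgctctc
Krt20, chr11:99438104-99438403, minus strand: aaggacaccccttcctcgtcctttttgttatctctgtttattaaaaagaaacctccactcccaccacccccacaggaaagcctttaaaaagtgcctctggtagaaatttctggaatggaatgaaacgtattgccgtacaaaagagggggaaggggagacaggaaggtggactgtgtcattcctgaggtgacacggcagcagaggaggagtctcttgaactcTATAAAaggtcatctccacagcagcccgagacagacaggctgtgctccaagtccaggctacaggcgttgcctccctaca
Krt23, chr11:99493071-99493370, minus strand: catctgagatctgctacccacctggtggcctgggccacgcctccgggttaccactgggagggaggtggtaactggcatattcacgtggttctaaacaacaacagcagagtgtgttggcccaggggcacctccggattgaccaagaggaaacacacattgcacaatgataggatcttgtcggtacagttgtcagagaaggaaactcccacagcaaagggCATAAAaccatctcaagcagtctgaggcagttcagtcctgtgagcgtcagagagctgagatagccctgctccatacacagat
The Krt8 window held the TATA core on both strands in overlapping letters, 1 and 3 bases before the RefSeq start, which lies 140 bases inside the start of the GENCODE gene. The Krt18 window held no TATA core and had 1 AP-2 match 83 bases before the start. Krt20 had a TATA core 29 bases before its start, and Krt23 had no TATA core and 1 CDX match 32 bases before its start. The TATA core was present in 18 of the 36 keratin promoters and in 13.6% of the 32851 promoters of the same length. CCAAT was present in 14 of the 36 and in 37.4% of all, the GC box in 2 and in 35.7%, AP-1 in 2 and in 7.81%, AP-2 in 7 and in 16.6%, and CDX in 15 and in 11.9%. The 36 windows include some well inside the GENCODE gene, by 1360 bases for Krt7, 1518 for Krt14 and 989 for 1 of the 2 Krt13 windows. All matches describe letters in these windows and are not evidence of binding.

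Libraries of both sets expressed simple epithelial keratins at high level, and the sets differed in which ones. Counting a gene as expressed at 1 CPM or more in both DMSO libraries, the TAK901 set expressed 13 keratin genes (Krt7, Krt8, Krt10, Krt13, Krt14, Krt18, Krt19, Krt20, Krt23, Krt76, Krt78, Krt79 and Krt80) and the ENMD-2076 set expressed 7 (Krt7, Krt8, Krt10, Krt18, Krt19, Krt80 and Krt87). Krt7, Krt8, Krt18 and Krt19 together made up 96.75% to 98.75% of the keratin reads in every library. All keratin genes together took 0.576% and 0.517% of the reads in genes in DMSO 3 and 4, against 0.347% and 0.35% in DMSO 1 and 2. In each library of the TAK901 set 21 to 30 of the 50 genes had at least 1 read, against 14 to 17 in the ENMD-2076 set.

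A total of 11 keratin genes had 0 reads in all 12 libraries (Krt2, Krt9, Krt34, Krt40, Krt72, Krt73, Krt74, Krt75, Krt81, Krt86 and Krt90), most of them keratins of the epidermis, the hair shaft or the hair root sheath. A further 19 had reads but stayed under the filter on low counts. Among these Krt4, the partner of Krt13 in the lining of the mouth and oesophagus, reached 22 reads, in 1 library of ENMD-2076 at 1.25 µM. Krt84, a hair keratin, reached 10 reads in DMSO 4. Krt5 and Krt17, both keratins of basal cells, reached 6 reads each in the TAK901 set and had 0 reads throughout the ENMD-2076 set. The others reached 7 reads or fewer. The other 20 genes were tested, and a gene that passed the filter through a single group had to differ from the others, so counts over these 20 are read beside the share of all 15375 tested genes.

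Per kb of coding sequence, the order of levels differed between the sets. In DMSO 3 and 4 Krt8 averaged 1761 CPM per kb, Krt18 1041, Krt19 761 and Krt7 116, and the ranges of these neighbours did not overlap. In DMSO 1 and 2 Krt18 led with 1114 CPM per kb, Krt7 with 705 and Krt8 with 694 followed, and Krt19 stood at 55.5. Krt7 and Krt8 could not be ordered in DMSO 1 and 2, with ratios of Krt7 over Krt8 of 1.00 and 1.03 per coding kb. On the whole-transcript scale that ratio was 0.447 and 0.459, since the annotated Krt7 transcript has 4094 bases, of which 1371 are coding.

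**Figure D1:**
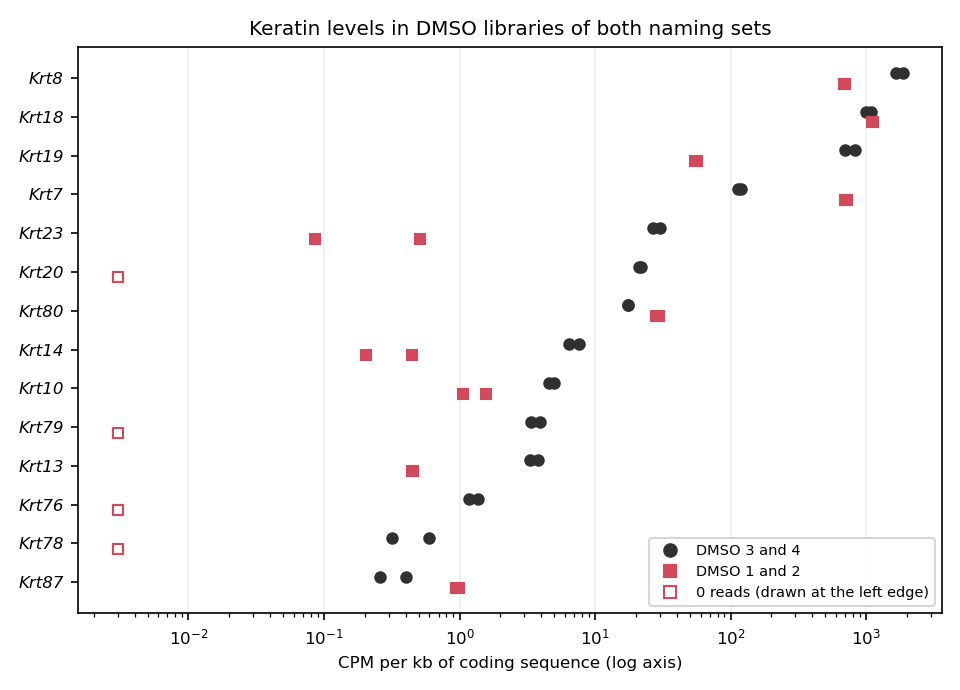
Levels in CPM per kb of coding sequence (log axis) of the 14 keratin genes expressed in at least 1 set, in DMSO 3 and 4 (circles) and in DMSO 1 and 2 (squares), 1 mark for each library and open squares for 0 reads. Krt20, Krt76, Krt78 and Krt79 had no reads in DMSO 1 and 2, and Krt7, Krt80 and Krt87 are the genes whose squares lie clearly to the right of the circles.

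DMSO 3 and 4 differed from DMSO 1 and 2 in 16 of the 20 tested keratin genes, with 13 higher and 3 lower. The background share was 67.3% of all tested genes, 36.6% higher and 30.6% lower, by edgeR's quasi-likelihood test with Benjamini-Hochberg adjustment at 0.05. Krt19, a type I keratin of simple and ductal epithelia, had 1000 and 841 CPM in DMSO 3 and 4, against 68.2 and 65.9 CPM in DMSO 1 and 2. Krt8 had 2735 and 2442 CPM in DMSO 3 and 4, against 1015 and 1024 CPM in DMSO 1 and 2. Both genes were higher in DMSO 3 and 4 with no overlap, by 3.78 ± 0.08 (SE, adjusted p = 5.9e-27) for Krt19 and 1.34 ± 0.06 (1.8e-18) for Krt8 on the log2 scale.

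Krt7, the type II keratin of ducts and glands, went the other way. It had 164 and 155 CPM in DMSO 3 and 4, against 950 and 984 CPM in DMSO 1 and 2, a log2 difference of -2.60 ± 0.06 (adjusted p = 2.8e-25). Krt18, the usual partner of Krt8, did not pass the test. Its levels were 1383 and 1259 CPM in DMSO 3 and 4, against 1404 and 1422 CPM in DMSO 1 and 2, and its log2 difference of -0.10 had a 95% interval of -0.22 to 0.02. Krt80, a type II keratin of many epithelia, had 23.8 and 23.6 CPM in DMSO 3 and 4, against 38.0 and 40.3 CPM in DMSO 1 and 2 (-0.72 ± 0.11, adjusted p = 1.8e-06).

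Krt20 and Krt23 set the TAK901 set apart most plainly. Krt20, known from the lining of stomach and intestine, had 28.0 and 27.1 CPM in DMSO 3 and 4 and 0 reads in all 6 libraries of the ENMD-2076 set, which makes it at least 163-fold higher against the floor of 3 reads a library. Krt23, a type I keratin of simple epithelia, had 37.9 and 33.8 CPM in DMSO 3 and 4, against 0.108 and 0.648 CPM in DMSO 1 and 2, where it had 2 and 11 reads (6.58 ± 0.27, adjusted p = 9.9e-19). A list of gut and foregut markers, which includes Krt20, summed to 825 and 826 CPM in DMSO 3 and 4 with 10 of 17 genes at 1 CPM or more. In DMSO 1 and 2 it summed to 18.8 and 13.0 CPM with 2 of 17 at that level. Its part in the keratin differences was not tested.

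Keratins of stratified epithelia were also more often present in DMSO 3 and 4, at low level. Krt14 had 11.1 and 9.25 CPM in DMSO 3 and 4, against 0.649 and 0.295 CPM in DMSO 1 and 2 (4.39 ± 0.31, adjusted p = 1.3e-13). Krt10 had 8.37 and 7.75 CPM, against 1.78 and 2.65 CPM in DMSO 1 and 2 (1.87 ± 0.24, adjusted p = 6.5e-08). Krt13, of the lining of mouth and oesophagus, had 116 reads in each of DMSO 3 and 4 (4.93 and 4.36 CPM), against 11 and 10 reads in DMSO 1 and 2 (0.595 and 0.589 CPM). All 3 were higher in both libraries of DMSO 3 and 4 than in either of DMSO 1 and 2.

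Krt79, a type II keratin of hair follicle ducts, had 6.25 and 5.38 CPM in DMSO 3 and 4 and no reads in DMSO 1 and 2, at least 34.3-fold higher. Krt76, of the palate and other oral linings, had 2.42 and 2.11 CPM in DMSO 3 and 4 and no reads in DMSO 1 and 2, at least 13.4-fold higher. Krt78, a type II keratin of stratified epithelia, had 1.91 and 1.02 CPM in DMSO 3 and 4 and none in DMSO 1 and 2, at least 8.64-fold higher. These genes were thus seen at 1 to 6 CPM in DMSO 3 and 4 and not detected in DMSO 1 and 2.

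The remaining calls between the sets rested on few reads. Krt15, Krt16 and Krt36 had 11 to 29 reads in each of DMSO 3 and 4, against 0 to 10 in each of DMSO 1 and 2. The Krt15 ratio was 19.8 with a counting interval of 3.28 to 810, and the Krt36 ratio was 13.4 with one of 3.47 to 115. Krt16 was higher by 1.67 ± 0.70 on the log2 scale (adjusted p = 0.0353), and 37.6% of its 50-base words also occur in other genes, so its reads are uncertain. Krt87, a hair keratin that shares 36.9% of its words with other genes, had 0.382 and 0.602 CPM in DMSO 3 and 4, against 1.41 and 1.47 CPM in DMSO 1 and 2 (-1.52 ± 0.60, adjusted p = 0.0257). Of the 16 calls, 12 held in every alternative tried. Among these, Krt20, Krt23, Krt76, Krt78 and Krt79 passed the filter on low counts through the TAK901 set alone, where they were high. Krt15 and Krt36, also called higher, passed it in the same way. For these genes the call and its hold add little to the reads themselves, and the split of calls is partly set by the filter.

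Other epithelial genes differed between the sets as well. Among all tested genes 36.6% were higher and 30.6% lower in DMSO 3 and 4. Of the 14 tested genes of desmosomes and keratin linkers, 3 were higher and 9 lower in DMSO 3 and 4, with a median log2 difference of -0.78 beside 0.08 for all genes. Dsp, the desmosome plaque protein that binds keratins, averaged 116 CPM in DMSO 3 and 4 and 381 CPM in DMSO 1 and 2 (-1.71, adjusted p = 2.8e-20). Epcam, a surface protein of epithelia, averaged 88.4 CPM in DMSO 3 and 4 and 352 CPM in DMSO 1 and 2 (-1.99, adjusted p = 2.1e-23). Cdh1, the adhesion protein E-cadherin, averaged 567 CPM and 423 CPM in the same order (0.43, adjusted p = 5.2e-08), so both sets expressed it. Sprr1a, of the cornified envelope, averaged 212 CPM in DMSO 3 and 4 with no reads in DMSO 1 and 2.

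With ENMD-2076 at 1.25 µM, Krt14 rose from a low level while Krt18 fell. Krt7, Krt8, Krt18 and Krt19 still made up 97.02% and 96.75% of the keratin reads at 1.25 µM. A total of 8 of the 20 tested keratin genes passed the test against DMSO 1 and 2, 3 higher (Krt7, Krt10 and Krt14) and 5 lower (Krt8, Krt13, Krt18, Krt23 and Krt80). Among all tested genes 45.9% passed, 22.6% higher and 23.2% lower, so 8 of 20 is near the background share. Of the 20, Krt20, Krt76 and Krt79 had no reads in either group and could not pass.

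Krt14, the type I keratin of basal cells, had 56.4 and 53.7 CPM with ENMD-2076 at 1.25 µM, against 0.649 and 0.295 CPM in DMSO 1 and 2. The groups were far apart, with a log2 difference of 6.82 ± 0.27 (adjusted p = 8e-20). Its type II partner Krt5 had 0 reads in both libraries at 1.25 µM. Of its 50-base words 13.9% occur in other genes, chiefly Krt16 and Krt17. Krt17 had 0 reads at 1.25 µM, and Krt16, a keratin of wounded and proliferating epidermis, had 14 and 17 reads at 1.25 µM, against 10 and 1 reads in DMSO 1 and 2 (1.21 ± 0.73, adjusted p = 0.184).

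The defining transcription factor of basal epithelium was low beside Krt14. Trp63, the gene of p63, averaged 0.879 CPM at 1.25 µM and had no reads in DMSO 1 and 2, at least 5.19-fold higher. Mammary basal markers, a list that includes Krt14, summed to 57.7 and 54.8 CPM at 1.25 µM, against 0.811 and 0.530 CPM in DMSO 1 and 2, and 2 of its 7 tested genes were higher. Nearly all of that sum was therefore Krt14. The share of all tested genes that were higher at 1.25 µM was 22.6%, and list counts here are read beside it. Fibroblast markers summed to 84.1 and 94.9 CPM at 1.25 µM, against 38.3 and 44.8 CPM in DMSO 1 and 2, with 3 and 1 of the 10 genes at 1 CPM or more. Haematopoietic markers summed to 23.8 and 28.0 CPM at 1.25 µM, against 11.5 and 13.3 CPM in DMSO 1 and 2, with 1 of 5 tested genes higher and 0 reads at 1.25 µM for Ptprc, the pan-leukocyte surface protein. Endothelial markers summed to 0.412 and 0.129 CPM at 1.25 µM, against 0.757 and 0.589 CPM in DMSO 1 and 2. Here and below, more cells of a type and more RNA per cell cannot be told apart in RNA from whole cultures, and the part of other cells was not tested.

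Krt18 had 873 and 861 CPM at 1.25 µM, against 1404 and 1422 CPM in DMSO 1 and 2. Both libraries at 1.25 µM were well below both DMSO libraries, and Krt18 fell by 0.70 on the log2 scale (SE 0.06, adjusted p = 1.2e-11). Krt8, its partner, had 926 and 895 CPM at 1.25 µM, against 1015 and 1024 CPM in DMSO 1 and 2, and fell by 0.16 (SE 0.06, adjusted p = 0.0255). The Krt8 call was lost without the second library at 1.25 µM, without DMSO 1 or without DMSO 2, with an adjusted p of up to 0.126. Krt8 also shares 26.9% of its 50-base words with other genes, mainly the pseudogene Krt8-ps.

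Krt7 had 1174 and 1052 CPM at 1.25 µM, against 950 and 984 CPM in DMSO 1 and 2 (0.20 ± 0.06, adjusted p = 0.00525). Its ranges did not overlap, and the call was lost without the first library at 1.25 µM (adjusted p = 0.135) or without DMSO 1 (0.0717). Krt19 had 66.3 and 61.9 CPM, against 68.2 and 65.9 CPM in DMSO 1 and 2, and did not pass (-0.07, 95% interval -0.24 to 0.09, adjusted p = 0.505). Krt10, a type I keratin of the suprabasal epidermis, had 5.43 and 4.67 CPM, against 1.78 and 2.65 CPM in DMSO 1 and 2, and rose by 1.18 ± 0.26 (adjusted p = 3e-04).

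Falls of low genes went with few reads. Krt13 had 1 and 0 reads at 1.25 µM, against 11 and 10 in DMSO 1 and 2, a ratio of 0.037 with a counting interval of 0.000896 to 0.23 (adjusted p = 5.2e-04). Krt23 had no reads at 1.25 µM, against 2 and 11 in DMSO 1 and 2, at least 2.50-fold lower (adjusted p = 0.00106), and without DMSO 2 it did not pass (0.082). Krt80 had 29.2 and 34.8 CPM at 1.25 µM, against 38.0 and 40.3 CPM in DMSO 1 and 2 (-0.28 ± 0.11, adjusted p = 0.0441). The Krt80 call was lost in 16 of 21 alternatives. Krt87 had 0.619 and 1.29 CPM, against 1.41 and 1.47 CPM in DMSO 1 and 2, and did not pass.

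The genes that anchor keratins or act beside them at 1.25 µM moved in both directions. Of the 14 tested genes of desmosomes and keratin linkers 6 rose and 5 fell, and of 7 in hemidesmosomes 2 fell. Among all tested genes 22.6% were higher and 23.2% lower, so the hemidesmosome count is near the background share. Of 19 tested genes of epithelial junctions and surface 10 rose and 1 fell, with a median of 0.33 on the log2 scale beside 0.00 for all genes. Cdh1 averaged 791 CPM at 1.25 µM and 423 CPM in DMSO 1 and 2 (0.90, adjusted p = 6.2e-15), and Dsp 530 CPM and 381 CPM in the same order (0.48, 1.6e-07). Of 8 other intermediate filament genes 1 rose and 5 fell, among them Vim, the vimentin of mesenchymal cells and of many cultured lines, at 439 CPM at 1.25 µM and 2207 CPM in DMSO 1 and 2 (-2.33, adjusted p = 1.3e-23). Of 16 regulators of epithelial transcription and splicing 8 rose and 2 fell. Elf3 averaged 35.7 CPM at 1.25 µM and 13.0 CPM in DMSO 1 and 2 (1.45, 1.2e-12), and Klf5 30.0 CPM and 60.1 CPM in the same order (-0.99, 2.1e-10).

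**Figure D2:**
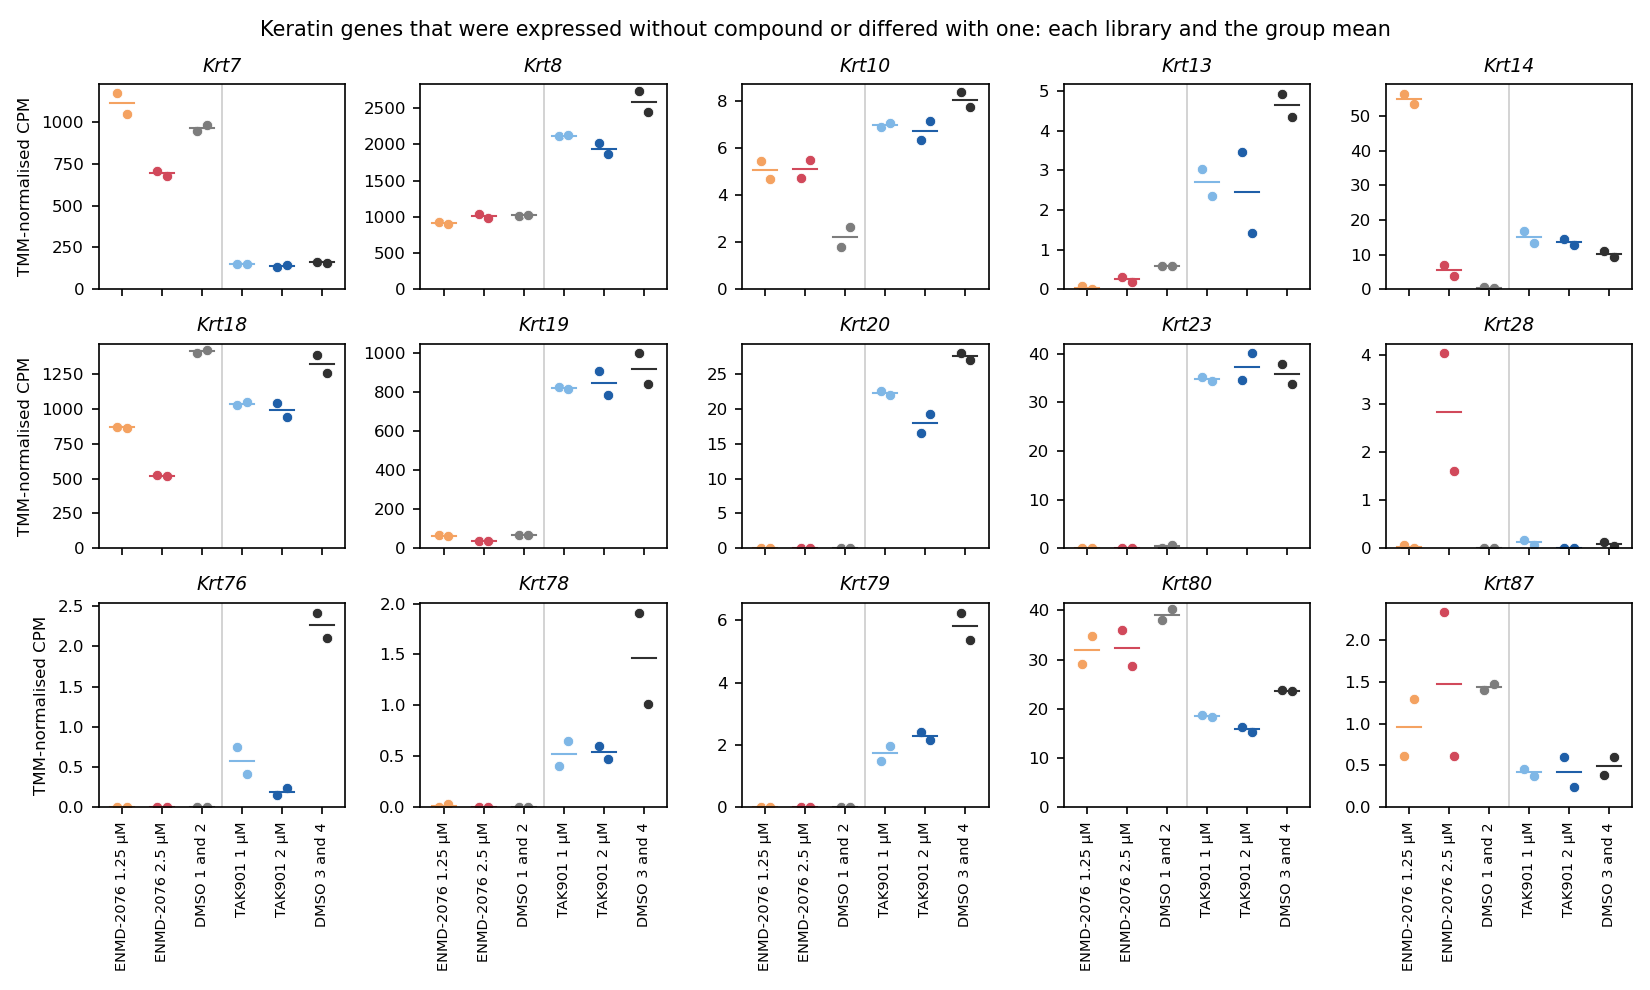
TMM-normalised CPM of 15 keratin genes in each library (points) with the mean of the group (bar), the ENMD-2076 set left of the grey line and the TAK901 set right of it. Krt14 is highest with ENMD-2076 at 1.25 µM (56.4 and 53.7 CPM), Krt18 is lowest at 2.5 µM (524 and 515 CPM), and Krt28 has its 2 high points at 2.5 µM.

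With ENMD-2076 at 2.5 µM, the type I keratins Krt18 and Krt19 and the type II keratin Krt7 were lower than in DMSO 1 and 2. The low-level keratins Krt10 and Krt14 were higher. Krt28 was also higher, but it passed the filter on low counts through the 2.5 µM libraries alone. Again 8 of 20 tested keratin genes passed, 3 higher and 5 lower (Krt7, Krt18, Krt19, Krt23 and Krt80). Of all tested genes 70.3% passed, 33.2% higher and 37.1% lower. Among the 20 keratin genes, Krt20, Krt76, Krt78 and Krt79 had no reads in either group and could not pass. The keratin share is therefore not read as smaller than the background share. With RLE factors the keratin split was 4 higher and 4 lower, since Krt8 then counted as higher and Krt80 no longer passed. Over all genes the split of 5111 higher and 5705 lower became 3760 higher and 7247 lower under total-count scaling, whose median gene stood at -0.37 on the log2 scale.

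The libraries at 2.5 µM stood apart in ways that touch the scaling. Their TMM factors were 0.766 and 0.784, against 0.989 to 1.12 in the other libraries. Gm26917, a non-coding transcript, had 2190 and 2000 CPM of the total count at 2.5 µM, against 29.9 to 92.6 elsewhere. Mitochondrial genes took 8.83% and 8.72% of the reads at 2.5 µM and 6.21% and 7.09% at 1.25 µM, against 3.92% and 4.13% in DMSO 1 and 2. Endothelial markers summed to 3.47 and 5.66 CPM at 2.5 µM, against 0.757 and 0.589 CPM in DMSO 1 and 2, with 3 of 4 tested genes higher and 0 reads for Cdh5, the cadherin of endothelium. Gut and foregut markers summed to 35.5 and 38.5 CPM at 2.5 µM, against 18.8 and 13.0 CPM in DMSO 1 and 2. Of their 10 tested genes 3 were higher, near the 33.2% higher among all tested genes. The part of these values in the keratin results was not tested.

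Krt18 had 524 and 515 CPM at 2.5 µM, against 1404 and 1422 CPM in DMSO 1 and 2. It fell by 1.44 on the log2 scale (SE 0.06, adjusted p = 1.9e-19), with the groups far apart. Krt8 had 1031 and 989 CPM at 2.5 µM, against 1015 and 1024 CPM in DMSO 1 and 2, and the ranges overlapped. Its log2 difference was -0.01 (95% interval -0.14 to 0.11, adjusted p = 0.88), and the sign turned with the scaling: it was 0.15 with RLE factors (adjusted p = 0.0331) and with DESeq2 (0.0131), and -0.37 under total-count scaling (7.5e-07). Krt18 was lower under each of these settings.

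Krt19 had 35.2 and 35.5 CPM at 2.5 µM, against 68.2 and 65.9 CPM in DMSO 1 and 2 (-0.93 ± 0.09, adjusted p = 1.2e-10). Krt7 had 708 and 679 CPM, against 950 and 984 CPM in DMSO 1 and 2 (-0.48 ± 0.06, adjusted p = 2e-08). Neither gene's ranges overlapped. Krt80 had 36.0 and 28.7 CPM, against 38.0 and 40.3 CPM in DMSO 1 and 2 (-0.26 ± 0.12, adjusted p = 0.0434), a call lost in 16 of 20 alternatives.

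Krt14 had 7.13 and 3.80 CPM at 2.5 µM, against 0.649 and 0.295 CPM in DMSO 1 and 2, and rose by 3.54 ± 0.36 (adjusted p = 3.4e-10). Krt10 had 4.73 and 5.48 CPM, against 1.78 and 2.65 CPM in DMSO 1 and 2, and rose by 1.20 ± 0.27 (adjusted p = 2e-04). Krt28, a type I keratin of the inner root sheath of the hair, had 64 and 18 reads at 2.5 µM (4.04 and 1.59 CPM) and no reads in DMSO 1 and 2, at least 16.6-fold higher (adjusted p = 1.1e-06). Outside 2.5 µM Krt28 had 3 reads or fewer in each library. It was tested only because it was high at 2.5 µM, so its call is no separate evidence of a rise. The inner root sheath partners Krt71, Krt72, Krt73 and Krt74 had 1 read at most in any library. Mammary basal markers, which include Krt14, summed to 13.9 and 10.8 CPM at 2.5 µM, against 0.811 and 0.530 CPM in DMSO 1 and 2. Of the 7 tested 6 rose and none fell, beside 33.2% of all tested genes higher and 37.1% lower. Their median log2 difference was 4.37 (3.34 with genes without reads in DMSO 1 and 2 at their bound and without Trp63). At 2.5 µM 3 of the 10 listed reached 1 CPM in both libraries, against none in DMSO 1 and 2. Of the 10 listed, 4 had no reads at 2.5 µM, among them Trp63 and the basal keratins Krt5 and Krt17.

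At the low end, Krt13 had 5 and 2 reads at 2.5 µM, against 11 and 10 in DMSO 1 and 2 (-1.18, adjusted p = 0.142). Krt23 had none, against 2 and 11 in DMSO 1 and 2, at least 1.66-fold lower (adjusted p = 0.00319), and it did not pass without DMSO 2 (0.103). Krt87 had 2.34 and 0.619 CPM at 2.5 µM, on both sides of its 1.41 and 1.47 CPM in DMSO 1 and 2. Krt20, Krt76, Krt78 and Krt79 had no reads in either group.

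Genes of keratin anchorage were mostly lower at 2.5 µM. Among all tested genes 33.2% were higher and 37.1% lower. Of 14 tested genes of desmosomes and keratin linkers 13 fell and 1 rose, with a median log2 difference of -0.88 beside -0.02 for all genes, and with RLE factors 11 fell. Dsp averaged 246 CPM at 2.5 µM and 381 CPM in DMSO 1 and 2 (-0.63, adjusted p = 3.3e-10), and Jup, the plakoglobin of desmosomes and adherens junctions, 115 CPM and 258 CPM in the same order (-1.17, 2.3e-16). Of 7 hemidesmosome genes 4 fell and 1 rose, and Itgb4, an integrin chain of hemidesmosomes, averaged 48.0 CPM at 2.5 µM and 234 CPM in DMSO 1 and 2 (-2.28, adjusted p = 3.5e-20). The summed level of the hemidesmosome genes was not lower by TMM, at 1727 and 1664 CPM at 2.5 µM against 1551 and 1511 CPM in DMSO 1 and 2. Of 19 junction and surface genes 14 fell and 2 rose (median -1.14). By TMM Cdh1 was higher, with 491 CPM against 423 CPM in DMSO 1 and 2 (0.22, adjusted p = 8.6e-04). That difference is smaller than the fall of the median gene under total-count scaling at 2.5 µM, so its direction rests on the scaling. Epcam averaged 342 CPM at 2.5 µM and 352 CPM in DMSO 1 and 2 (-0.04, adjusted p = 0.537). Grhl2, a transcription factor of epithelial barriers, averaged 33.3 CPM and 53.9 CPM in the same order (-0.69, 2.9e-07).

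**Figure D3:**
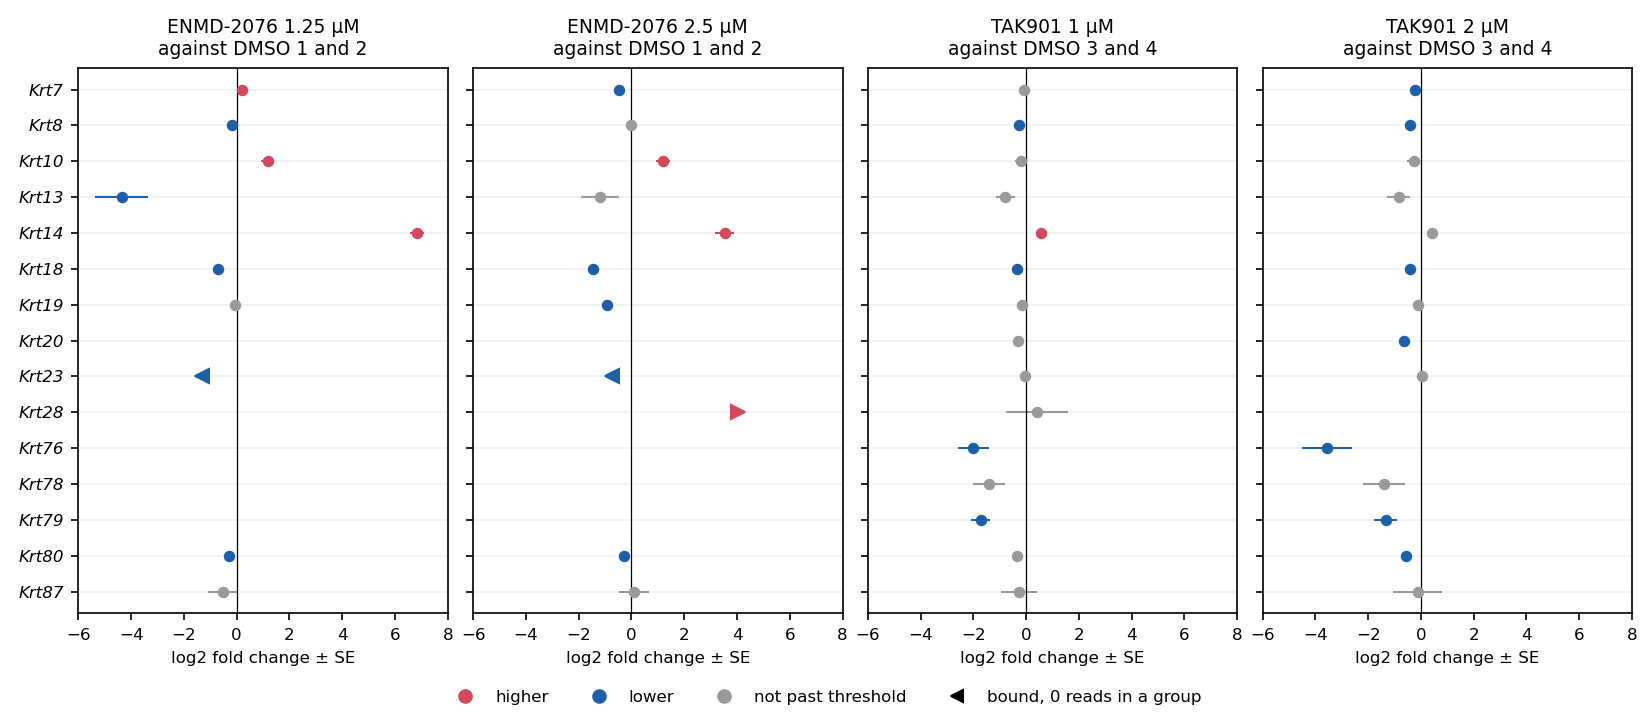
Log2 fold change against the set's own DMSO libraries with its SE for 15 keratin genes, 1 panel for each compound and dose, with red for higher, blue for lower, grey for not past the threshold and triangles for bounds where a group had 0 reads. Genes without reads in both groups have no mark. Krt18 is blue in every panel and Krt14 is red in the ENMD-2076 panels and at 1 µM TAK901.

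Between the ENMD-2076 doses, 2.5 µM differed from 1.25 µM in 8 of 20 tested keratin genes, 4 higher (Krt8, Krt13, Krt28 and Krt42) and 4 lower (Krt7, Krt14, Krt18 and Krt19). Of all tested genes 73.3% differed, 35.4% higher and 37.8% lower. Under total-count scaling the keratin split was 3 higher and 7 lower, and the split over all genes was 4177 higher and 7343 lower, in place of 5448 and 5816. These doses share DMSO 1 and 2 as their control, but this contrast uses only the treated libraries.

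Krt14 was 3.28 ± 0.19 lower on the log2 scale at 2.5 µM than at 1.25 µM (adjusted p = 3.2e-16), with 7.13 and 3.80 CPM at 2.5 µM and 56.4 and 53.7 CPM at 1.25 µM. Krt14 was thus highest at the lower dose. Krt18, Krt19 and Krt7 were lower at 2.5 µM by 0.74, 0.85 and 0.68 on the log2 scale (adjusted p = 1.4e-12, 5.3e-10 and 9.5e-12). Krt8 was 0.15 ± 0.06 higher (adjusted p = 0.0256), but its value was -0.23 under total-count scaling (5.2e-04). Krt28 had 82 reads at 2.5 µM and 1 read at 1.25 µM, a ratio of 138 with a counting interval of 24 to 5500. Krt28 passed the filter through the 2.5 µM libraries alone, so this call too was set by the filter. Krt13, with 7 reads at 2.5 µM and 1 at 1.25 µM, and Krt42, a type I keratin with 19 and 3 reads in the same order, rested on few reads.

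The balance of keratin chains moved with ENMD-2076. Per kb of coding sequence Krt18 over Krt8 was 1.09 and 1.12 at 1.25 µM, 0.588 and 0.603 at 2.5 µM, and 1.60 and 1.61 in DMSO 1 and 2. The 3 groups did not overlap, and the same order held per kb of whole transcript, at 1.28 and 1.31, 0.692 and 0.709, and 1.88 and 1.89. A ratio within a library does not depend on its scaling. Summed type I over type II chains per coding kb stood at 0.521 and 0.549 at 1.25 µM, 0.364 and 0.373 at 2.5 µM, and 0.825 and 0.815 in DMSO 1 and 2. Per kb of whole transcript these sums gave 0.891 and 0.927, 0.557 and 0.569, and 1.34 and 1.33 in the same order. The share of all keratin genes in the reads was 0.316% and 0.298% at 1.25 µM, 0.18% and 0.177% at 2.5 µM, and 0.347% and 0.35% in DMSO 1 and 2.

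In the TAK901 set these ratios lay closer together. Krt18 over Krt8 was 0.564 and 0.573 with TAK901 at 1 µM, 0.597 and 0.587 at 2 µM, and 0.586 and 0.597 in DMSO 3 and 4. Type I over type II chains stood at 0.999 and 0.997 at 1 µM, 1.10 and 1.05 at 2 µM, and 0.992 and 0.974 in DMSO 3 and 4. Per kb of whole transcript they stood at 1.15 in both libraries at 1 µM, 1.26 and 1.21 at 2 µM, and 1.14 and 1.12 in DMSO 3 and 4. Which type was larger in DMSO 1 and 2, and the order of the 2 DMSO groups, thus turned with the length used. Per coding kb Krt7 over Krt8 was 0.0643 to 0.0828 throughout the TAK901 set. It was 1.36 and 1.26 with ENMD-2076 at 1.25 µM, 0.736 at 2.5 µM in both libraries, and 1.00 and 1.03 in DMSO 1 and 2. The ratios are given as descriptions, and the smallest p that an exact two-sided permutation test of 2 libraries against 2 allows is 0.333.

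**Figure D4:**
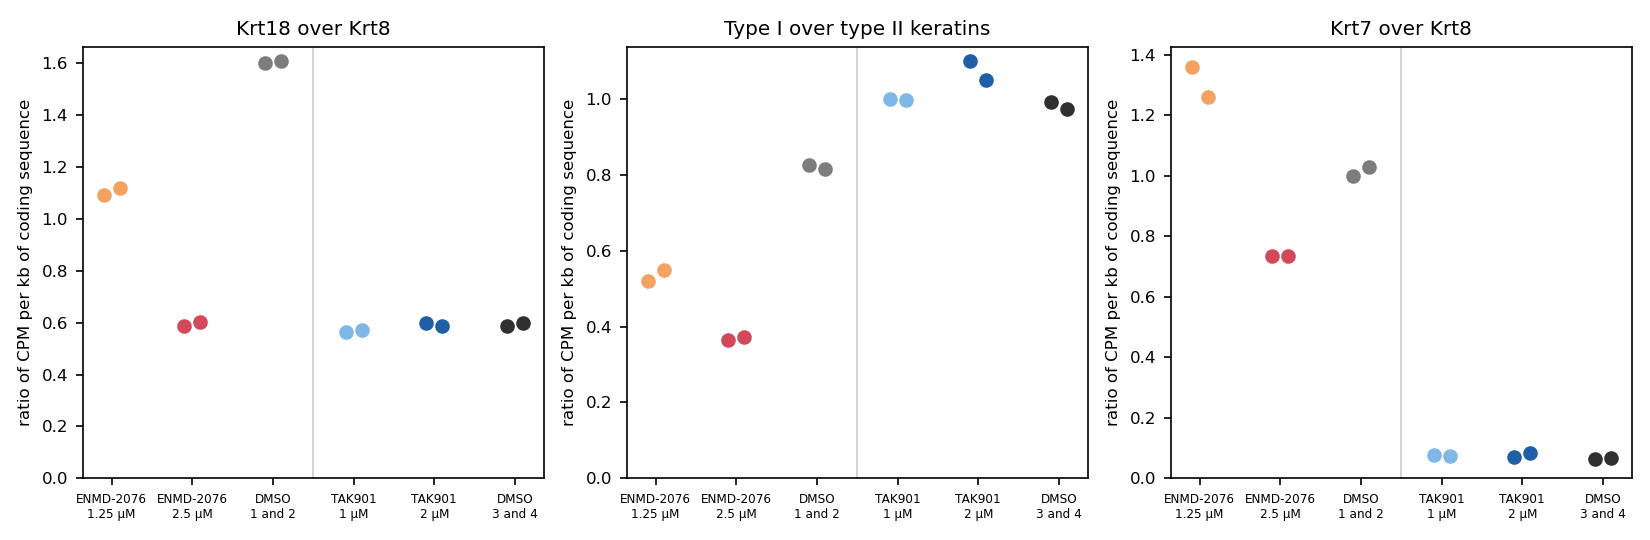
Ratios of CPM per kb of coding sequence in each library for Krt18 over Krt8, summed type I over type II keratins, and Krt7 over Krt8, with the ENMD-2076 set left of the grey line and the TAK901 set right of it. Krt18 over Krt8 is 1.60 and 1.61 in DMSO 1 and 2, 0.588 and 0.603 with ENMD-2076 at 2.5 µM, and between 0.564 and 0.597 throughout the TAK901 set.

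With TAK901 the abundant pair Krt8 and Krt18 was modestly lower at both doses, and the low-level keratin Krt79 fell further. Krt76 fell too, but it passed the filter on low counts mainly through DMSO 3 and 4, where it was high. At 1 µM 5 of 20 tested keratin genes passed against DMSO 3 and 4, with Krt14 higher and Krt8, Krt18, Krt76 and Krt79 lower. Of all tested genes 9.14% passed, 3.97% higher and 5.17% lower, with 611 higher and 795 lower by TMM but 746 higher and 640 lower under total-count scaling. At 2 µM 7 of 20 passed, all of them lower (Krt7, Krt8, Krt18, Krt20, Krt76, Krt79 and Krt80). The share of all tested genes at 2 µM was 14.9%, 5.63% higher and 9.28% lower, with 865 higher and 1427 lower by TMM but 1172 higher and 1008 lower under total-count scaling. The 2 comparisons share DMSO 3 and 4, so their likeness is not independent. Mitochondrial genes took 2.64% to 2.98% of the reads in the 4 TAK901 libraries, against 1.94% and 2.04% in DMSO 3 and 4. Fibroblast markers summed to 24.3 and 22.2 CPM at 1 µM and 23.5 and 19.3 CPM at 2 µM, against 18.4 and 18.3 CPM in DMSO 3 and 4. Their part in the keratin results was not tested.

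Krt18 had 1026 and 1051 CPM at 1 µM and 1041 and 943 CPM at 2 µM, against 1383 and 1259 CPM in DMSO 3 and 4. All 4 treated libraries lay below both DMSO libraries, and Krt18 fell by 0.35 (SE 0.06, adjusted p = 1.7e-04) at 1 µM and by 0.41 (SE 0.06, 8.9e-06) at 2 µM. Krt8 had 2109 and 2125 CPM at 1 µM and 2020 and 1863 CPM at 2 µM, against 2735 and 2442 CPM in DMSO 3 and 4. It fell by 0.29 (SE 0.06, adjusted p = 0.0015) at 1 µM and by 0.41 (SE 0.06, 9.4e-06) at 2 µM. The 1 µM call of Krt8 was lost without DMSO 3 (adjusted p = 0.12), which had the highest Krt8 level of all libraries.

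Krt19 did not pass at either dose, with 826 and 816 CPM at 1 µM and 907 and 786 CPM at 2 µM, against 1000 and 841 CPM in DMSO 3 and 4. Its log2 differences were -0.16 (adjusted p = 0.14) and -0.12 (0.292). Krt7 had 150 and 148 CPM at 1 µM and 131 and 144 CPM at 2 µM, against 164 and 155 CPM in DMSO 3 and 4. It passed at 2 µM alone (-0.22 ± 0.07, adjusted p = 0.0301; -0.10 and 0.408 at 1 µM), and that call was lost in 6 of 19 alternatives.

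Krt20 had 22.7 and 22.0 CPM at 1 µM and 16.6 and 19.3 CPM at 2 µM, against 28.0 and 27.1 CPM in DMSO 3 and 4. It passed at 2 µM (-0.63 ± 0.17, adjusted p = 0.0113; -0.31 and 0.229 at 1 µM), although not without the first 2 µM library, DMSO 3 or DMSO 4. Krt23 had 35.3 and 34.3 CPM at 1 µM and 34.7 and 40.1 CPM at 2 µM, against 37.9 and 33.8 CPM in DMSO 3 and 4, with overlapping ranges at 2 µM (0.05, adjusted p = 0.9). Krt80 had 18.8 and 18.4 CPM at 1 µM and 16.4 and 15.3 CPM at 2 µM, against 23.8 and 23.6 CPM in DMSO 3 and 4 (-0.35, adjusted p = 0.06 at 1 µM; -0.57 ± 0.15, 0.0087 at 2 µM). The 2 µM call of Krt80 was lost without either 2 µM library.

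Keratins of stratified epithelia moved in both directions with TAK901. Krt14 had 16.8 and 13.4 CPM at 1 µM and 14.5 and 12.9 CPM at 2 µM, against 11.1 and 9.25 CPM in DMSO 3 and 4. All 4 treated libraries were above both DMSO libraries, but only the 1 µM difference passed (0.55 ± 0.17, adjusted p = 0.0349), and it was lost in 8 of 20 alternatives; at 2 µM it was 0.44 (0.181). Krt79 had 1.50 and 1.98 CPM at 1 µM and 2.41 and 2.15 CPM at 2 µM, against 6.25 and 5.38 CPM in DMSO 3 and 4. It fell by 1.72 (SE 0.36, adjusted p = 0.00229) at 1 µM and by 1.33 (SE 0.43, 0.0345) at 2 µM, and 4 of 19 and 7 of 19 alternatives lost these calls. Krt76 had 0.748 and 0.409 CPM at 1 µM and 0.151 and 0.239 CPM (1 read each) at 2 µM, against 2.42 and 2.11 CPM in DMSO 3 and 4.

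Krt76 fell by 2.01 on the log2 scale at 1 µM (SE 0.58, adjusted p = 0.0275), and by 3.56 at 2 µM (SE 0.94), where its ratio was 0.0819 with a counting interval of 0.0098 to 0.303 (adjusted p = 0.00908). Both Krt76 calls were lost without either library of the dose concerned and without DMSO 3 or DMSO 4, and the 1 µM call also without either library of 2 µM, which shares its estimate of the spread. Krt76 had 57 and 56 reads in DMSO 3 and 4, against 13 and 12 at 1 µM. It was thus tested mainly because it was high in DMSO 3 and 4, so these calls are no separate evidence of a fall. Krt78 had 0.403 and 0.648 CPM at 1 µM and 0.603 and 0.477 CPM at 2 µM, against 1.91 and 1.02 CPM in DMSO 3 and 4, and did not pass. Krt13 had 3.05 and 2.35 CPM at 1 µM and 3.47 and 1.43 CPM at 2 µM, against 4.93 and 4.36 CPM in DMSO 3 and 4, all treated libraries below both DMSO libraries without a call. Krt10 had 6.90 and 7.06 CPM at 1 µM and 6.33 and 7.16 CPM at 2 µM, against 8.37 and 7.75 CPM in DMSO 3 and 4, also without a call. Krt87 stayed between 0.239 and 0.603 CPM in the TAK901 set, and Krt28 had 3 reads or fewer in each library.

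Between the TAK901 doses no keratin gene passed at 2 µM against 1 µM, by edgeR or by DESeq2, and 2 had an unadjusted p under 0.05. Of all tested genes 0.0715% passed, 0.0455% higher and 0.026% lower, which is 11 genes, with 1194 under 0.05 unadjusted. The smaller number of reads at 2 µM sets the depth of this comparison.

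Genes beside the keratins moved in both directions with TAK901. Among all tested genes 3.97% were higher and 5.17% lower at 1 µM, and 5.63% were higher and 9.28% lower at 2 µM. Of 14 tested genes of desmosomes and keratin linkers 2 rose at 1 µM, and 2 rose and 1 fell at 2 µM. Jup rose by 0.28 at 1 µM (adjusted p = 0.00351) and by 0.34 at 2 µM (7.1e-04), and Dsp by 0.24 (0.0212) and 0.22 (0.0458) on the log2 scale. Of 19 junction and surface genes 4 rose at 1 µM and 7 at 2 µM, and none fell. Cdh1 averaged 682 CPM at 1 µM and 699 CPM at 2 µM, against 567 CPM in DMSO 3 and 4 (0.26, adjusted p = 0.00148, and 0.30, 2.4e-04). Of 7 hemidesmosome genes 4 fell at each dose, and Lama3, a laminin chain of the basement membrane, fell by 0.55 (1.1e-04) and by 1.04 (1.1e-07). Of 8 other intermediate filament genes 2 fell at 1 µM and 5 at 2 µM, and Vim averaged 2157 CPM at 2 µM and 2531 CPM in DMSO 3 and 4 (-0.23, adjusted p = 0.00792).

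Some keratin calls held under every alternative tried and others did not. Against DMSO 1 and 2, those for Krt10, Krt13, Krt14 and Krt18 held throughout at 1.25 µM ENMD-2076, 4 of 8, and those for Krt7, Krt10, Krt14, Krt18, Krt19 and Krt28 at 2.5 µM, 6 of 8. Between the doses of ENMD-2076 5 of 8 held (Krt7, Krt14, Krt18, Krt19 and Krt28). For Krt28 this adds little, since it was tested only through the 2.5 µM libraries, where it was high. Against DMSO 3 and 4, the call for Krt18 held at 1 µM TAK901, 1 of 5, and those for Krt8 and Krt18 at 2 µM, 2 of 7. Krt18 was thus the keratin gene whose fall held in all 4 comparisons of a compound with DMSO. Whether the compounds differed in their effect on a keratin gene was not tested, since each was set against its own DMSO libraries in a set that differed from the other.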

How the data were processed

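For each library the authors deposited a table of raw read counts per gene, and every value was a whole number and not negative. Named in the submitters' processing notes are the builds mm10 and hg38 and, with a version for FastQC (0.11.3) alone, the tools HTSeq, TopHat, Bowtie, DESeq2 and FastQC. Which strand and annotation were used for counting is not given in the sources used here, and reads of overlapping genes are therefore uncertain. RNA was isolated with TRIzol and made into libraries with a NEBNext Ultra kit, per the labels' protocols. Doses are those of the treatment labels. The growth protocol gives 1 or 2 µM for ENMD-2076 in 4T1, and the column headers of the ENMD-2076 tables read 10 µM at both labelled doses and name no compound.

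Symbols, coordinates and lengths came from GENCODE mouse release 21 (GRCm38), which named 37607 of 38924 gene IDs. Summary lines of the counter were left out of totals. The test was edgeR 4.0.16 under R 4.3.3, with filterByExpr, TMM factors and a quasi-likelihood fit of 6 group means over all 12 libraries, which left 6 residual degrees of freedom. It covered 15375 genes, 20 of them keratins, with two-sided p-values adjusted by Benjamini-Hochberg over all genes tested and a threshold of 0.05. Each SE is the absolute log2 difference divided by the root of its F value. The script was tested on simulated counts. Levels per kb use the coding length of the principal GENCODE transcript, with the whole transcript as a second scale. Protein lengths had been planned for this and were not used here. Folds against groups without reads use the floor of 3 reads per library, and a counting interval stands where a group had 1 to 3 reads. Libraries within a group differed by more than sampling noise, at a chi-square of 2.48 to 7.63 per degree of freedom.

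The keratin genes and all gene lists were chosen with earlier results of these data known. Values in every library are given for keratins expressed in a set or past the threshold with a compound. From other lists, Cdh1, Epcam, Vim, Dsp, Jup, Trp63, Grhl2, Elf3, Klf5, Ppl and the genes of largest change could be named. Alternatives were DESeq2 1.42.0, other scalings, no filter on low counts, other choices of libraries in the fit, each library left out, and a replicate block.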

Additional observations from a re-analysis of the deposited data

How the results depend on the processing

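The number of keratin genes past the threshold stayed within 1.5 times its value in every alternative for ENMD-2076 (6 to 9 genes at 1.25 µM, 6 to 9 at 2.5 µM and 6 to 10 between the doses), for DMSO 3 and 4 against DMSO 1 and 2 (13 to 16) and between the TAK901 doses (0 throughout). For TAK901 at 1 µM it moved from 5 to 9 with the libraries of the TAK901 set alone, to 10 with the 2 groups alone and to 2 with DESeq2. Leaving out 1 library gave 1 to 6 genes at 1 µM (1 without DMSO 3) and 2 to 7 at 2 µM (2 without its first library). The cause was not tested. Over all genes, TAK901 at 1 µM gave 1406 calls with a range of 376 to 3719, at 2 µM 2292 with a range of 1245 to 3377, and between its doses 11 with a range of 1 to 99. The direction of Krt8 turned for ENMD-2076 at 2.5 µM against DMSO 1 and 2 (0.15 with RLE factors and with DESeq2). Between the ENMD-2076 doses Krt8 (-0.23) and Krt80 (-0.37) turned under total-count scaling, whose median gene stood at -0.38 there, at -0.37 for 2.5 µM against DMSO 1 and 2, and at 0.19 between the DMSO groups. The medians printed for gene lists kept their sign under both other scalings, an alternative chosen after seeing the data.

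At 0.5 CPM as the level of expression 15 keratin genes counted in DMSO 3 and 4 and 8 in DMSO 1 and 2, and at 5 CPM 10 and 5. Replicate numbers did not pair libraries (correlations of deviations -0.0129 to 0.0221). With a replicate block 7 keratin genes passed at each ENMD-2076 dose, 8 between these doses and 0 between the TAK901 doses, and the block lost Krt80 at both doses of ENMD-2076. Depth limits the TAK901 comparisons at 2 µM most, where 3 reads stand at 0.452 and 0.716 CPM, and the Krt76 level there is 1 read in each library.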

Other observations

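Genes named like keratins but outside the symbol rule were mostly silent. Of the 4 keratin genes with a letter in the symbol, none had a read in the ENMD-2076 set. Krt6a, a type II keratin of wounded epidermis, averaged 0.228 CPM with TAK901 at 1 µM, 0.0753 CPM at 2 µM and 1.12 CPM in DMSO 3 and 4. Krt33a, a hair keratin, averaged 0.566 CPM at 1 µM, 0.822 CPM at 2 µM and 0.643 CPM in DMSO 3 and 4. Of 55 genes of keratin-associated proteins, which embed the filaments of hair, 37 had 0 reads in all libraries and 2, Krtap1-5 and Krtap4-16, reached 10 reads in a library.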
